A study of Sus scrofa with 6 samples.

Results

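Among the candidate miRNA sequences of the pig jejunum, 47 mature sequences had been predicted from more than 1 precursor, and these are described here. A member was a sequence of the deposited count tables that was identical to a candidate mature sequence listed by the study under 2 or more temporary names, where the first letters and number of a name give the pig (Sus scrofa) chromosome, such as SSC12 for chromosome 12. Of the 533 sequences in the tables, 256 were candidates and 48 of these had several names. 1 of the 48 is not reported here, which left 47 members with 106 names, while 208 candidates with a single name served for comparison.

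The study asked how weaning changes small RNA of the small intestine. Small RNA was sequenced from the jejunum of crossbred barrows (Duroc x Yorkshire x Landrace). The weaning libraries W1, W4 and W7 came from piglets separated from the sow for 1, 4 and 7 days, and the suckling libraries S1, S4 and S7 came from piglets of the same age that stayed with the sow. Total RNA of 4 piglets was pooled for each library, and in the weaning libraries each of them came from another litter. The suckling piglets were taken from the same 4 litters. No library was repeated, so a difference between W and S on 1 day has no replicate check, and a pool hides the spread between piglets.

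A miRNA is cut from a hairpin precursor, and the same mature sequence can be encoded by several genes, often close together on a chromosome. Bases 2 to 8 of a miRNA, the seed, pair with target mRNAs, so that miRNAs with the same seed are grouped in a family. A read of a shared mature sequence does not tell from which of its precursors it came. The members are candidates, predicted by the study from reads and the folding of precursors. They were not compared here with the mature miRNAs of other species, beyond the same-seed names in the study's list, so a member may be a miRNA known under another name.

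The 12 members with at least 50 reads over the 6 libraries are shown first because they held 2332 of the 2712 member reads (86%). Each is given under all its temporary names, 5′ to 3′, with the seed in capitals, and is called by its first name afterwards.
SSC12_1537/SSC12_1538: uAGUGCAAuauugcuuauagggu
SSC16_5095/SSC16_5096: uGAGGUAGuaggcugugugg
SSCX_18135/SSCX_18482: aCCAGACUcugagagcaggac
SSC12_1453/SSC12_1457/SSC12_1459/SSC12_1463: uUUACGUCcuuucaccuaguuu
SSC9_16912/SSC9_16916: gGCAGUGUaauuagcugauugu
SSC16_5019/SSC16_5020/SSC16_5206: aAGAAUUCuccuucugggca
SSC8_16674/SSC9_16808: cUCCUGGCuggcucgcca
SSC7_14583/SSC7_14591: uGGAUUGUucuccaaccuggcucu
SSC16_4970/SSC16_5137: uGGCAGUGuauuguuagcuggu
SSC17_5393/SSC17_5394: aUGAUGCCccuuagaguugagc
SSC13_1793/SSC13_1794/SSC13_2285/SSC13_2286: uUUGCUCUgcuccugccaca
SSC7_14987/SSC7_14989/SSC7_15826/SSC7_15828: cAAAACAGagaaucaagacuga

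No seed was shared by any pair of members, so the 47 sequences held 47 different seeds. Some members shared the seed of a known pig miRNA, and these relatives are shown because the counts of both are set side by side further on. The known sequences carry the names of the study's list.
ssc-miR-130a: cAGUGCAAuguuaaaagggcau
ssc-miR-130b: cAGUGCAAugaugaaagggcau
ssc-let-7c: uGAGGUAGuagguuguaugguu
ssc-miR-34a: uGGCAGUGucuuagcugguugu
ssc-miR-34c: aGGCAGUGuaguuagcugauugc
ssc-miR-204: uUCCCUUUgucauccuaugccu
ssc-miR-378: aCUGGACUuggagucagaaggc

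SSC12_1537 has the seed of miR-130a and miR-130b, and SSC16_5095 has that of let-7, a family known for restraining growth and promoting differentiation. SSC16_4970 has the seed of miR-34a and miR-34c, a family known in mammals as a transcriptional target of p53. SSC9_16912 begins 1 base further along the same letters, so its own seed is another one, although the whole sequence was only 3 edits (substitutions, insertions or deletions) away from miR-34c. SSC16_5019 shared a run of 13 nt, AAGAAUUCUCCUU, with miR-186 in a different register, and was 5 edits away from it. The study's list named a miRNA of some species with the same seed for 38 of the 47 members and none for 9, among them SSC12_1453, SSC17_5393 and SSC7_14987. A shared seed is a description of the letters and not evidence that a candidate acts like its relative.

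Most members had 2 names. There were 38 with 2 names, 6 with 3 and 3 with 4, and the 3 with 4 names were SSC12_1453, SSC13_1793 and SSC7_14987. All names of a member lay on the same chromosome for 44 of the 47. The 3 others were SSC8_16674/SSC9_16808 on chromosomes 8 and 9, SSC3_10332/SSC3_10928/SSC4_11514 on chromosomes 3 and 4, and SSC1_6648/SSC6_14199 on chromosomes 1 and 6. For 11 members the names were numbered consecutively, as in SSC12_1537 and SSC12_1538, and the largest step between numbers was 923. Whether neighbouring numbers mean neighbouring genes, or copies of a region in the draft assembly, was not tested, since no genome of the study's build was used here and no coordinates are given.

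Members were found on 18 chromosomes, and the number of names did not follow the number of reads. Chromosomes 4 and 7 had 11 names each, chromosome 3 had 10, and chromosomes 1, 6 and 16 had 9 each. Chromosome 12 had 8 names and 959 reads, 835 of them from SSC12_1537. Chromosome 16 had 777 reads, 593 of them from SSC16_5095. The members first named on chromosome 4 held 62 reads, and no member lay on chromosome 10 or on the mitochondrial genome, where 4 and 1 single-name candidates were placed.

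**Figure D1:**
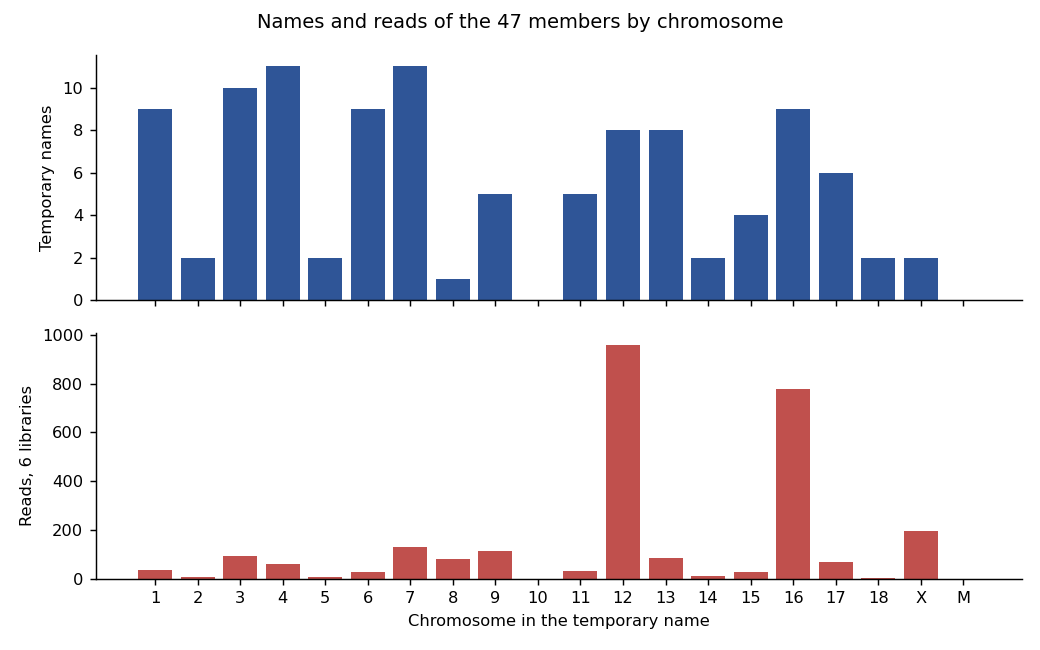
Temporary names (top) and reads over the 6 libraries (bottom) of the 47 members, by the chromosome in the name; the reads of the 3 members on 2 chromosomes are counted once, at their first name. Names were spread over 18 chromosomes, with 11 each on 4 and 7, while reads were concentrated on 12 and 16.

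The tables listed most members once per precursor, and these repeated rows mostly held the same reads. In 201 combinations of a member and a library with several rows, the counts of all rows were identical in 179 and differed in 22. The differences were small except for SSC16_4970 in W1, with 9 reads on one row and 1 on the other, and SSC7_15231/SSC7_16022 in W1, with 5 and 3 reads. Of 54 sequences with several rows in a library, 46 were members, and the 47th member, SSC15_4509/SSC15_4510, stood on a single row in each of the 5 libraries that held it. That sequence and an unnamed one that is 1 base shorter had the same count in every library. The highest row was used once per library below. Adding the rows instead would give 6011 member reads in place of 2712.

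The members were rare. Their 2712 reads were 0.00943% of the 28772629 reads of the tables, and SSC12_1537 and SSC16_5095 together held 1428 of them (52.7%). The median member had 12 reads over the 6 libraries and the median single-name candidate had 13, but the highest member had 835 reads and the highest single-name candidate, SSCX_18747, had 12825. Of the 47 members, 19 had fewer than 10 reads in all, 12 had 10 to 19, 4 had 20 to 49, 6 had 50 to 99 and 6 had at least 100. Members and single-name candidates were similar in length, with a median of 21 nt in both and a range of 18 to 25 nt. The median GC content was 55% in members and 58.1% in single-name candidates, and a U stood first in 51.1% of members and 44.2% of single-name candidates. These are descriptions with no test.

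Library totals ran from 4441416 (W7) to 5373146 (S7), so that 1 read was 0.186 CPM (counts per 1000000 counts of the library) in S7 and 0.225 CPM in W7. The 3 most abundant sequences took 53.5% of the reads in W4 and 72.8% in S4, with the other libraries between. The 5 epithelial miRNAs on the marker list (miR-192, miR-215, miR-194a, miR-194b-5p and miR-429) summed to 542545 to 578984 CPM in the suckling libraries and to 478223, 225470 and 306692 CPM in W1, W4 and W7. The 2 smooth muscle and stroma miRNAs (miR-143-3p and miR-145-5p) summed to 158918 to 204493 CPM in the suckling libraries and to 201266, 324170 and 329701 CPM in W1, W4 and W7. The 4 leukocyte miRNAs (miR-142-5p, miR-142-3p, miR-150 and miR-155-5p) summed to 2391 to 4172 CPM in the suckling libraries and to 3195, 6561 and 5433 CPM in the weaning libraries, while the 3 red cell miRNAs (miR-144, miR-451 and miR-486) stayed between 451 and 622 CPM in all 6. All listed markers were present, and the part of this shift in the member levels was not tested. The marker sums are shares of the library total, so a change in an abundant group alters the shares of the others. Marker sums by another scaling were not computed, so a direction by library total may not hold there. In bulk tissue, fewer cells of a type and less RNA per cell cannot be told apart.

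Members and single-name candidates were detected in similar shares. At least 1 read was found for 35, 34 and 32 members in S1, S4 and S7, and for 34, 41 and 37 members in W1, W4 and W7. W4 held the most members (87.2%) and S7 the fewest (68.1%). Among the 208 single-name candidates W4 also led with 171 (82.2%), while S4 was lowest with 145 (69.7%). W4 and W7 were the top libraries in both sets. When all libraries were thinned to the depth of W7, 40.85 members were expected in W4 and 30.35 in S7, so these remained the highest and the lowest. W4 also had the most reads outside the 3 most abundant sequences, and the part of that in detection was not tested.

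**Figure D2:**
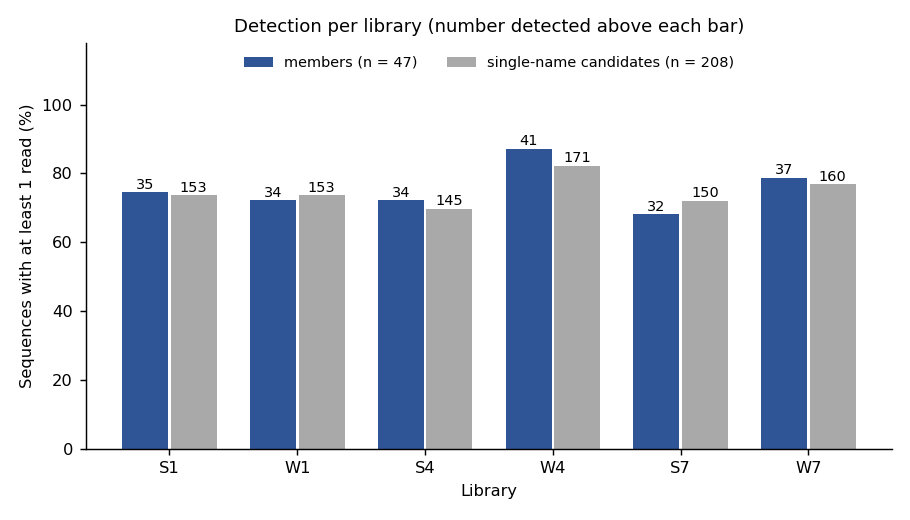
Percent of the 47 members (blue) and of the 208 single-name candidates (grey) with at least 1 read in each library, with the number above each bar. Member detection ran from 32 in S7 to 41 in W4, and W4 was also highest among single-name candidates.

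Of the 47 members, 21 (44.7%) had reads in all 6 libraries, against 83 single-name candidates (39.9%). Another 4 members were found in 5 libraries, 8 in 4, 9 in 3, 3 in 2 and 2 in a single library. The 3 members seen in weaning libraries alone (SSC18_5936/SSC18_6147, SSC6_14051/SSC6_14053 and SSC7_15604/SSC7_15606/SSC7_15612) and the 3 seen in suckling libraries alone (SSC1_7996/SSC1_8002, SSC4_10969/SSC4_10973 and SSC3_10556/SSC3_9847) had at most 3 reads in all. A count of 0 allows up to 3 reads, which is 0.558 CPM in S7 and 0.675 CPM in W7, so these members cannot be assigned to a condition at this depth. This limit and all intervals cover counting error only.

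SSC12_1537, with the miR-130 seed, was the most abundant member. It had 84 reads in S1, 124 in S4 and 121 in S7, and 130 in W1, 227 in W4 and 149 in W7. Each weaning library was above the suckling library of its day. By library total the 3 weaning libraries (28.0 to 50.4 CPM) did not overlap the 3 suckling libraries (18.7 to 23.3 CPM), but by TMM W1 fell below S4. Among the 12 members with at least 50 reads, the groups of SSC9_16912 did not overlap by library total either. By TMM its W1 fell below S1, so the groups of both members overlapped by that scaling. The share of all sequences without overlap was not counted, so the separation by library total cannot be set against all sequences. The W4 to S4 ratio was 1.11 on the log2 scale (95% interval 0.79 to 1.44) by library total and 0.27 (-0.05 to 0.60) by TMM, which scales libraries so that most sequences keep their level. The difference in scaling bears on every value here, because the median of all sequences with at least 20 reads in a pair was 0.28 on day 1, 0.83 on day 4 and 0.25 on day 7 by library total, and -0.039, -0.010 and -0.024 by TMM. By TMM the interval of SSC12_1537 held 0 on each of the 3 days. Its relative miR-130a had 965 reads in S4 and 1653 in W4, a log2 ratio of 1.01 by library total, and miR-130b had 561 and 1008 reads, a log2 ratio of 1.08. By TMM these ratios were 0.18 (0.06 to 0.29) for miR-130a and 0.25 (0.10 to 0.40) for miR-130b. The likeness was limited to day 4. On day 1 the TMM ratios were 0.26 for SSC12_1537, -0.15 for miR-130a and -0.35 (-0.52 to -0.17) for miR-130b. On day 7 the ratios were 0.30, -0.10 and 0.67 (0.53 to 0.81) in the same order. Differences between the member and its relatives were not tested. SSC12_1537 had 835 reads in all, against 6758 of miR-130a and 4301 of miR-130b.

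SSC16_5095, with the let-7 seed, ran from 17.1 CPM in W7 to 28.0 CPM in W4. It had 82, 107 and 96 reads in S1, S4 and S7 and 106, 126 and 76 reads in W1, W4 and W7, so the groups overlapped. Its day 4 log2 ratio was 0.47 (0.09 to 0.86) by library total and -0.36 (-0.75 to 0.02) by TMM. On days 1 and 7 the interval held 0 by both scalings. In the edgeR fit of the 3 weaning and 3 suckling libraries its log2 difference was -0.22 by TMM and 0.27 by library total, a change of sign with the scaling. It was 4 edits away from let-7c, its nearest relative, which had 133677 reads, and 8 known sequences of the let-7 and miR-98 family shared its seed.

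SSCX_18135 was the only member with more than 100 reads that was mostly in suckling libraries. It had 4 reads in S1, 109 in S4 and 48 in S7, against 13 in W1, 12 in W4 and 11 in W7. The 3 weaning libraries were alike, while S1 was the lowest and S4 the highest of the 6, so the groups overlapped. S4 alone held 55.3% of its reads (95% interval 48.1 to 62.4). The log2 ratio was -2.95 (-3.94 to -2.08) on day 4 and -1.85 (-2.95 to -0.89) on day 7 by library total, and further from 0 by TMM (-3.78 and -2.13). On day 1 the 17 reads, fewer than the 20 required for a count of 2-fold differences, gave a log2 ratio of 1.65 with an interval that held 0 (-0.04 to 3.72). The study's list gave the worm miRNA bma-miR-5863 as sharing its seed, and no other sequence of the tables did.

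SSC9_16912 and SSC16_4970, both close to miR-34, had their highest counts in W4. SSC9_16912 had 12, 9 and 5 reads in S1, S4 and S7 and 14, 53 and 16 reads in W1, W4 and W7. Its log2 ratio was 0.17 (-1.05 to 1.42) on day 1, 2.80 (1.76 to 4.00) on day 4 and 1.95 (0.44 to 3.76) on day 7 by library total, and 1.96 (0.93 to 3.17) on day 4 and 1.68 (0.16 to 3.48) on day 7 by TMM. W4 stood apart from the other 5 libraries, which lay between 5 and 16 reads.

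SSC16_4970 had 4, 4 and 11 reads in S1, S4 and S7 and 9, 23 and 15 reads in W1, W4 and W7. Its log2 ratio on day 4 was 2.76 (1.21 to 4.75) by library total and 1.93 (0.38 to 3.92) by TMM, while the day 7 interval held 0. The groups overlapped, and the 9 reads in W1 came from a row whose partner row had 1 read. The known relatives had 393 reads (miR-34a) and 254 reads (miR-34c), and their day 4 log2 ratios were 0.78 (0.27 to 1.30) and 1.31 (0.73 to 1.92) by library total. By TMM these ratios were -0.06 (-0.57 to 0.46) and 0.48 (-0.10 to 1.08), and both intervals held 0. The difference between SSC16_4970 and its relatives was not tested.

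SSC7_14583 was highest in W4 and W7. It had 1, 5 and 3 reads in S1, S4 and S7 and 3, 26 and 30 reads in W1, W4 and W7. W1 lay within the range of the suckling libraries, so the groups overlapped. The log2 ratio was 2.62 (1.21 to 4.35) on day 4 and 3.60 (1.91 to 5.95) on day 7 by library total, and 1.78 (0.38 to 3.52) and 3.32 (1.64 to 5.68) by TMM. The day 7 ratio was the highest of the members with at least 20 reads in a pair, and it rested on 3 reads in S7.

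SSC8_16674, which has a name on chromosome 8 and another on 9, was high in W7. It had 9, 16 and 7 reads in S1, S4 and S7 and 8, 17 and 24 reads in W1, W4 and W7. The libraries of days 1 and 4 were close within each pair, and the day 7 log2 ratio was 2.05 (0.79 to 3.51) by library total and 1.78 (0.52 to 3.24) by TMM. Both S7 and W7 lay at an end of its range.

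SSC12_1453, with 4 names on chromosome 12, had 8, 13 and 22 reads in S1, S4 and S7 and 16, 34 and 28 reads in W1, W4 and W7. Every weaning library was above its suckling library, with a log2 ratio by library total of 0.95 (-0.36 to 2.38) on day 1, 1.63 (0.67 to 2.67) on day 4 and 0.62 (-0.235 to 1.498) on day 7. By TMM the interval held 0 on day 4 as well (-0.17 to 1.83), and the groups overlapped, since S7 was above W1. SSC16_5019, the sequence that overlaps miR-186, had 12, 15 and 22 reads in the suckling and 20, 25 and 14 reads in the weaning libraries, and the order of the pair turned on day 7.

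The last 3 of the 12 had 51 or 52 reads each. SSC17_5393 had 7, 7 and 10 reads in S1, S4 and S7 and 16, 9 and 3 reads in W1, W4 and W7, so that W1 was highest and W7 lowest. SSC13_1793 had 7, 8 and 8 reads in the suckling and 3, 15 and 10 reads in the weaning libraries. SSC7_14987 had 3, 8 and 10 reads in the suckling and 2, 17 and 11 reads in the weaning libraries. In each of these 3 members the groups overlapped.

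**Figure D3:**
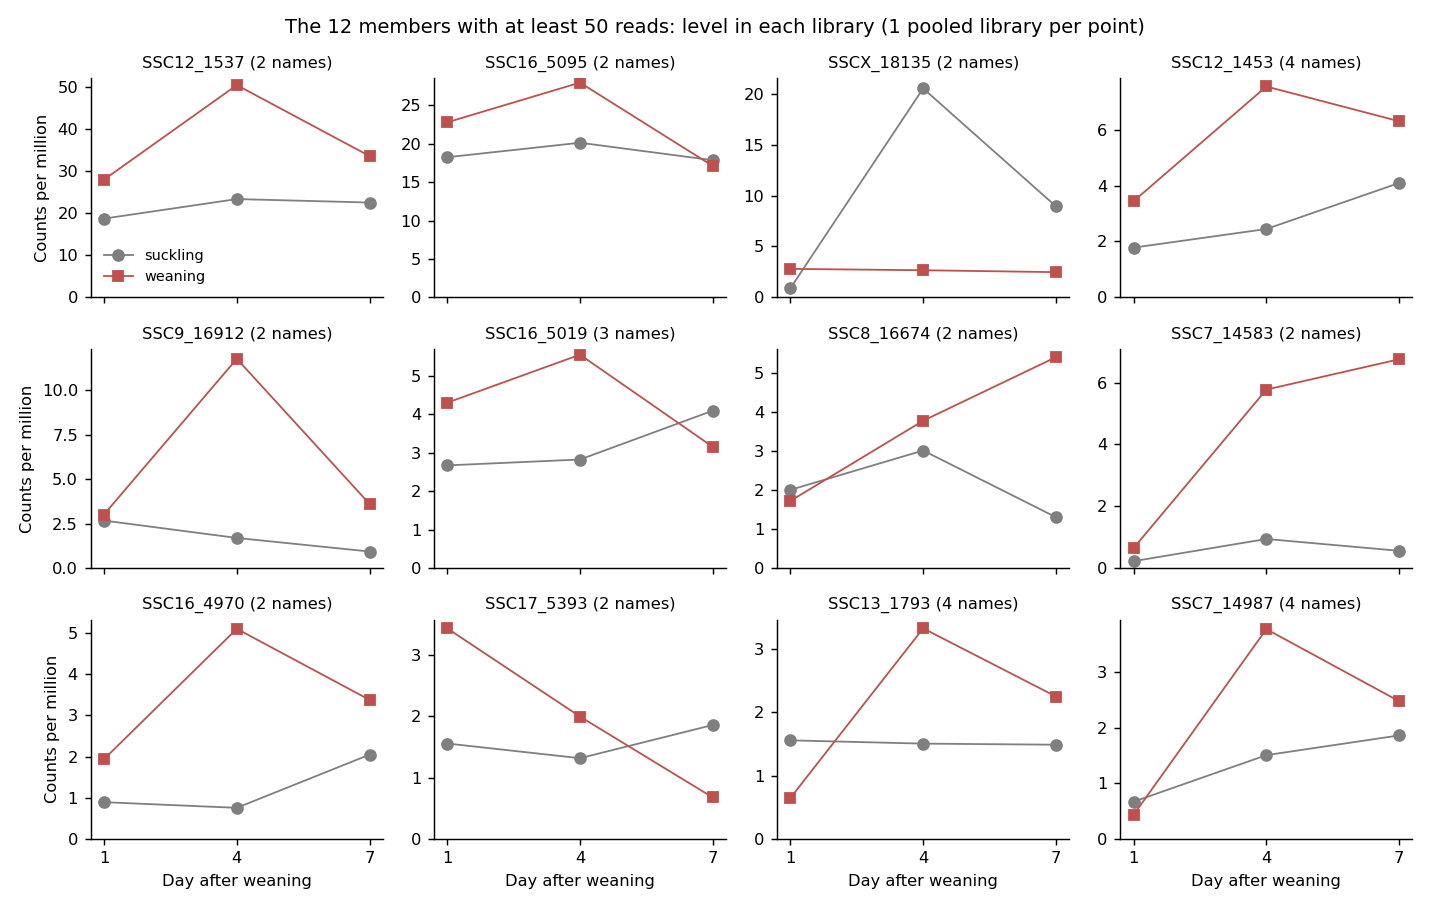
Level in CPM (library total) of the 12 members with at least 50 reads against the day after weaning, with suckling libraries as grey circles and weaning libraries as red squares; lines join different pools and are drawn only to guide the eye. SSC12_1537 in all 3 pairs and SSC7_14583 on days 4 and 7 were higher in the weaning library, while SSCX_18135 peaked in S4 at 20.5 CPM.

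Below 50 reads, 4 members had 20 to 49. SSC3_9980/SSC3_9982 had 45 reads, with 5, 20 and 0 in S1, S4 and S7 and 4, 0 and 16 in W1, W4 and W7. It was lower in W4 than in S4 and higher in W7 than in S7. The 95% counting interval of the log2 ratio lay below -2.07 on day 4 and above 2.22 on day 7 by library total, and below -2.90 and above 1.95 by TMM. The day 7 pair had 16 reads, fewer than the 20 required for a count of 2-fold differences. SSC4_11449/SSC4_11455/SSC4_11457 had 44 reads (1 to 13 per library) and SSC11_513/SSC11_514/SSC11_736 had 29 (3 to 8 per library). SSC3_10332/SSC3_10928/SSC4_11514 had 20 reads (1 to 7 per library) and shares its seed with miR-378, which had 98122 reads.

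A few of the rarer members are of interest for their letters, and are shown with their reads.
SSC4_11449/SSC4_11455/SSC4_11457: uUAGUCCUucggaaccccaaau
SSC4_12050/SSC4_12056/SSC4_12058: uUGAGUCCuuuugaaccccaaa
SSC1_6648/SSC6_14199: uUCCCUUUgucauccuuugccc
SSC3_10332/SSC3_10928/SSC4_11514: cCUGGACUgggagucaggag
SSC7_15231/SSC7_16022: cUGGACUAggagucagcaga
SSC17_5445/SSC17_5686: cACUGGCCuuggagucagaaa
The first pair, each with 3 names on chromosome 4, were 4 edits apart and had 44 and 12 reads. SSC1_6648/SSC6_14199 was 2 edits away from miR-204, and had 5 reads against 1789 of miR-204. The last 3 of these sequences contain the letters GGAGUCAG, which also stand in miR-378 itself. Read as written, without the reverse complement, these letters were found in 3 of 47 members (6.38%), 4 of 208 single-name candidates (1.92%) and 8 of all 533 sequences (1.5%). The letters were picked from a run that these members share. The higher share among members was therefore built in and says nothing further about them. The seed of SSC17_5445 is that of miR-193a-3p, which had 541 reads. The 3 members with these letters had 20, 9 and 4 reads, and no count of theirs is compared here. SSC7_15604/SSC7_15606/SSC7_15612, the remaining member with 3 names, had 2 reads.

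Summed over all members, counts were higher in the weaning library of every pair when scaled to the library total. The sum was 287 reads in S1 and 397 in W1, 496 in S4 and 660 in W4, and 410 in S7 and 462 in W7. As a share of the library this was 0.00639% (95% interval 0.00567 to 0.00717) in S1 and 0.00854% (0.00772 to 0.00942) in W1, 0.00934% (0.00853 to 0.0102) in S4 and 0.0147% (0.0136 to 0.0158) in W4, and 0.00763% (0.00691 to 0.00841) in S7 and 0.0104% (0.00948 to 0.0114) in W7. The log2 ratios were 0.42 (0.20 to 0.64), 0.65 (0.48 to 0.82) and 0.45 (0.25 to 0.64) on days 1, 4 and 7.

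By TMM the same ratios were 0.095 (-0.13 to 0.32), -0.19 (-0.36 to -0.02) and 0.17 (-0.02 to 0.37), so that the day 4 difference changed its direction. The group means were 77.9 ± 14.8 CPM (SD, n = 3) in the suckling and 112 ± 31.3 CPM (SD, n = 3) in the weaning libraries by library total, and 92.4 ± 21.6 and 92.9 ± 10.2 by TMM. The groups overlapped by both scalings, since S4 was above W1. Without SSC12_1537 and SSC16_5095 the sums were 121, 265 and 193 reads in S1, S4 and S7 and 161, 307 and 237 reads in W1, W4 and W7, with log2 ratios of 0.36, 0.45 and 0.57 by library total and 0.04, -0.39 and 0.30 by TMM. SSCX_18135 alone gave 109 of the 265 reads in S4, and without that member the day 4 ratio of the other members by TMM was 0.15 (-0.04 to 0.33), so the turn of direction on day 4 rested on it.

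The single-name candidates summed to 8668 to 9980 reads in the suckling libraries and to 10117, 14299 and 11811 reads in W1, W4 and W7. Their log2 ratios were 0.08 (0.04 to 0.12) on day 1, 0.96 (0.92 to 1.00) on day 4 and 0.52 (0.48 to 0.56) on day 7 by library total. By TMM they were -0.24 (-0.28 to -0.20), 0.12 (0.09 to 0.16) and 0.24 (0.20 to 0.28), so the day 1 difference changed its direction. The members' ratio was above theirs on day 1 and below theirs on day 4, and each of these differences changed when a single sequence was left out. SSCX_18747 is a single-name candidate with 2802 reads in S1 and 1633 in W1. Without it the day 1 ratio of the single-name candidates was 0.35 (0.30 to 0.40) by library total and 0.03 (-0.02 to 0.07) by TMM. The members' day 1 ratio was still above these values, at 0.42 by library total and 0.095 by TMM. Without SSCX_18135 the day 4 ratio of the members was 0.98 (0.80 to 1.17) by library total and 0.15 (-0.04 to 0.33) by TMM. These alternatives were chosen after seeing the data.

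**Figure D4:**
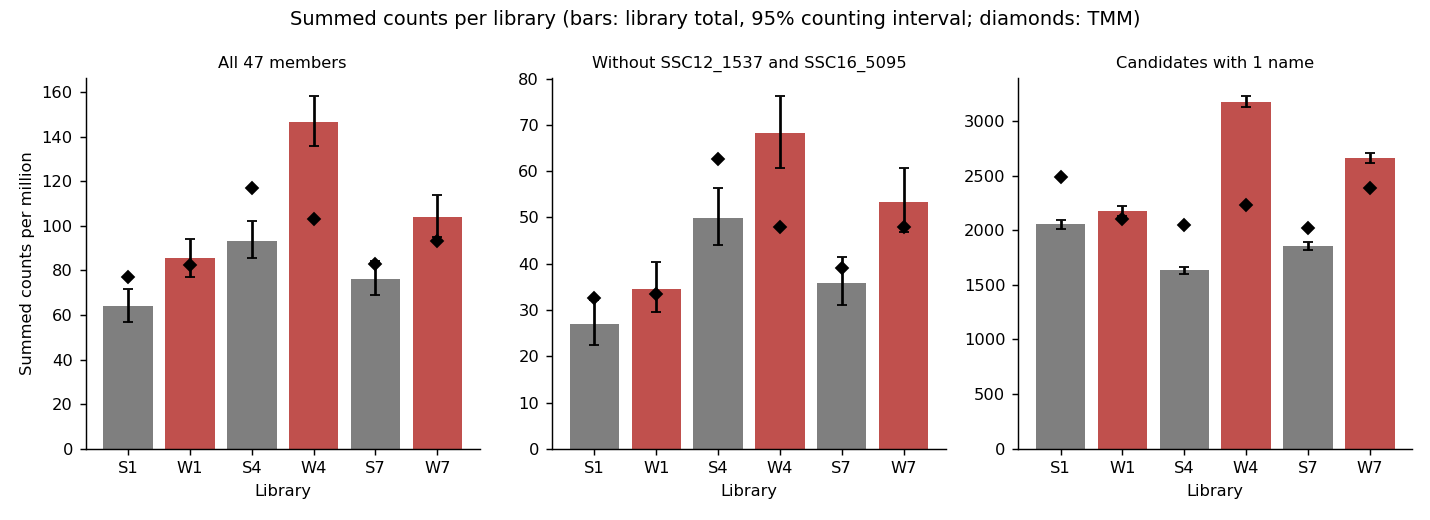
Summed CPM per library of all 47 members, of the members without the 2 most abundant, and of the 208 single-name candidates, with suckling libraries grey and weaning libraries red; bars use the library total with a 95% counting interval and diamonds use TMM. W4 was highest in each panel by library total, and by TMM S4 was above W4 for the members (117 and 103).

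Few members had enough reads for a ratio, and fewer passed a fold of 2. On day 1, 6 members had at least 20 reads in the pair. Of these, 1 was at least 2-fold higher in W1 by library total (SSC17_5393), where 7.91% of the 278 sequences with as many reads were, and 0 were at least 2-fold lower, against 2.88% of all. By TMM 0 were higher and 0 lower, against 2.88% and 5.04% of all sequences.

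On day 4, 13 members had at least 20 reads. Of these, 7 were at least 2-fold higher in W4 by library total (SSC12_1537, SSC12_1453, SSC9_16912, SSC7_14583, SSC16_4970, SSC13_1793 and SSC7_14987), where 35.2% of 293 sequences were. By TMM 3 stayed above 2-fold (SSC9_16912, SSC7_14583 and SSC16_4970), against 5.12% of all sequences. By either scaling 2 members were at least 2-fold lower, SSCX_18135 and SSC3_9980, against 2.73% of all sequences by library total and 9.22% by TMM.

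On day 7, 10 members had at least 20 reads. Of these, 3 were at least 2-fold higher in W7 by either scaling (SSC8_16674, SSC9_16912 and SSC7_14583), against 10.5% of 285 sequences by library total and 6.67% by TMM. SSCX_18135 was the 1 member that was at least 2-fold lower, against 4.21% by library total and 8.42% by TMM. The members stood on few reads, with a median of 29, 33 and 34.5 reads in the pair on days 1, 4 and 7, against 426.5, 403 and 426 for all sequences considered. Counting error is therefore wider for the members, and what part it has in these counts was not tested.

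**Figure D5:**
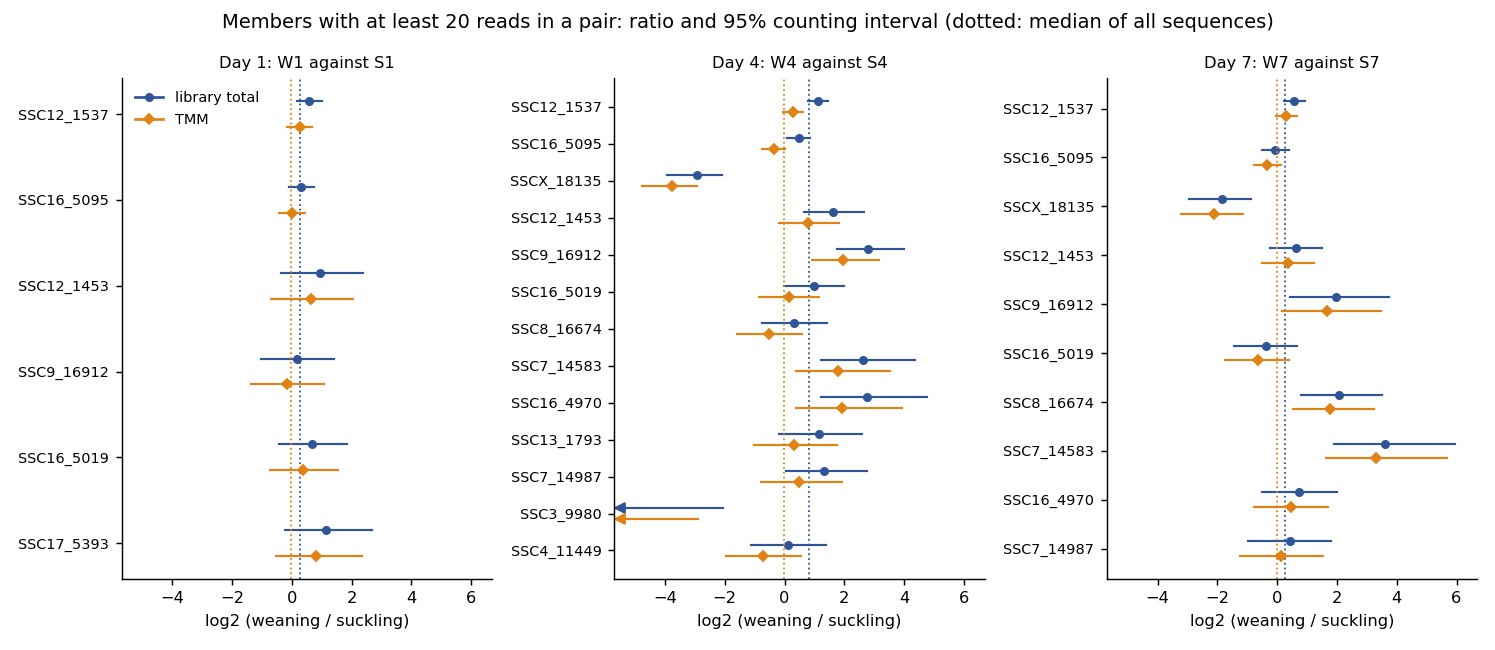
log2 ratio of the weaning to the suckling library for members with at least 20 reads in the pair, by library total (blue circles) and TMM (orange diamonds), with 95% counting intervals; dotted lines mark the median of all sequences and an arrow marks a member with 0 reads in W4. SSCX_18135 lay to the left of 0 on days 4 and 7, and SSC9_16912 and SSC7_14583 to the right.

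Over the 3 weaning and 3 suckling libraries, no member passed the test. edgeR's quasi-likelihood test with Benjamini-Hochberg adjustment took 290 sequences that reached 10 reads in 3 or more libraries, among them 9 of the 47 members, and called 0 of them at an adjusted p under 0.05 (0% of all), while 44 sequences and 1 member had an unadjusted p under 0.05. DESeq2 called 14 sequences and 0 members, but it gave no adjusted p for 6 of the 9 members. For SSCX_18135 its adjusted p was 0.0597. The member with the unadjusted p under 0.05 was SSCX_18135, with a log2 difference of -2.44 (SE 0.89, adjusted p = 0.256), and without S4 the value was -1.26 (adjusted p = 0.550). SSC9_16912 had a log2 difference of 1.25 (SE 0.56, adjusted p = 0.350), and without W4 it was 0.64 (adjusted p = 0.561). SSC16_4970 had 0.97 (SE 0.41, adjusted p = 0.312). The 6 others lay between -0.22 and 0.54, and the 38 remaining members, SSC7_14583 among them, did not have the reads to be tested. The median of the 9 was 0.28, against -0.01 for all 290 sequences. With no filter the order turned. The median of all 47 members was then 0.035, against 0.079 for all 533 sequences, and 26 members lay above 0. The 3 libraries of a group were taken on different days, so this test holds the spread between days together with that between pools.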

How the data were processed

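The authors pooled jejunal total RNA, isolated RNA of the miRNA size range, trimmed and filtered the reads, and mapped them with no mismatch to a draft pig assembly. The submitters' processing notes name Bowtie 0.12.2. The authors deposited raw counts of reads, with a row for each known miRNA or candidate precursor in each library. The step from alignments to counts is not described in the sources used here. The members and the lists were chosen with earlier results of these data known.

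The tables hold sequences without names. Candidate names came from identity with the study's candidate list, and known names from equal counts in all 6 libraries (at least 20 reads) with its list of known miRNAs. The highest of repeated rows was used once. The library total for CPM counted each sequence once. A sequence entered the counts of 2-fold differences between 1 weaning and 1 suckling library with at least 20 reads in the pair, and exact conditional binomial intervals of 95%, like those of the shares, cover counting error only. The groups were tested with edgeR 4.0.16 (quasi-likelihood, TMM, in R 4.3.3) and with DESeq2 (1.42.0), and other values were computed in Python 3.11.15. The p-values measure the spread between pools of different days. The SE beside an edgeR log2 difference is the absolute difference divided by the square root of the F statistic. It was derived from the test and not fitted separately. Scripts were tested on simulated data. Members with at least 50 reads were named with their counts and sequence, those with 20 to 49 with their total, and others where they had 3 or more names, 2 chromosomes or rows over 1.5-fold apart. SSC17_5445, SSC4_12050 and the members seen in 1 group alone were also named, for their letters or counts, after these were seen. Neither the paper's FPKM values nor its tests were used.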

Additional observations from a re-analysis of the deposited data

Results flagged for a closer look

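SSC3_9980/SSC3_9982 went in opposite directions on 2 days. It had 20 reads in S4 and 0 in W4, and 0 reads in S7 and 16 in W7. Each counting interval lay on its own side of 0 by library total and by TMM. The day 7 pair, with 16 reads, was below the 20 reads required for a count of 2-fold differences. With 1 pooled library per condition the difference between the days was not tested.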

How the results depend on the processing

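The number of members called over the 3 weaning and 3 suckling libraries stayed at 0 under every alternative run, while that of all sequences was 1 by library total, 14 by DESeq2 and 0 to 12 when a library was left out (12 without W1, 1 without S7). DESeq2 gave no adjusted p for 6 of the 9 members, so it could not call them. The day as a replicate block called 0 sequences. Deviations from the group mean were compared between the weaning and the suckling library of a day. The correlations on days 1, 4 and 7 were 0.0386, -0.195 and -0.00398 over 290 sequences. With 3 libraries in a group they cannot show whether the day pairs the libraries. Signs turned for members near 0: SSC16_5019 was 0.43 by library total, 0.035 with no filter and -0.14 to 0.10 when a library was left out (positive without S7 or W7), SSC16_5095 was 0.27 by library total, SSC7_14987 was -0.11 (without S1) to 0.65 and SSC8_16674 was -0.038 (without S7) to 0.61.

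Counts of members past 2-fold depended on scaling and minimum. Higher on day 1 were 0 by TMM, by DESeq2 size factors, by the total without the 3 most abundant sequences and with a minimum of 50 reads. Higher on day 4 were 3, 3, 3 and 2 in the same order, and lower on day 4 was 1 with 50 reads. Higher on day 7 were 0 with 50 reads. With 50 reads, 2, 4 and 4 members were considered on days 1, 4 and 7. By TMM, DESeq2 size factors and the reduced total, 6 were considered on day 1 and 13 on day 4. Against the mean of the 3 suckling libraries, 1 of 7 members was higher and 1 lower on day 1. On day 4, 7 of 11 were higher and 1 lower. On day 7, 6 of 10 were higher and 1 lower. The share of all sequences was not counted under DESeq2 size factors, the reduced total, the minimum of 50 reads or the suckling mean. Counts under these settings therefore cannot be set against all sequences.

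The log2 ratios of the summed counts on days 1, 4 and 7 were 0.095, -0.19 and 0.17 by TMM. Without the 3 most abundant sequences in the total they were 0.15, -0.12 and 0.23. Without the 2 most abundant members the day 4 ratio was 0.45 by library total and -0.39 by TMM. Without SSCX_18135, a choice made after seeing the data, it was 0.98 by library total and 0.15 by TMM. The log2 ratio of group means by library total was 0.28 to 0.69 when a library was left out. At least 3 reads were found for 18, 21 and 21 members in S1, S4 and S7 and 21, 23 and 21 in W1, W4 and W7. The cause of these shifts was not tested. Few reads limit all member values, and 26 of the 47 members lacked reads in at least 1 library.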
